A study of Mus musculus with 18 samples.

Results

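The genes described here are those of MHC class II antigen presentation, followed array by array in tumours of the TRAMP mouse and in normal mouse prostate. The 7 genes are H2-Aa, H2-Ab1, H2-Eb1, H2-DMa, H2-DMb1, Cd74 and Ciita, out of 18193 genes that have a probe set naming no other gene. They were taken by name, and each was read from the probe sets whose only gene symbol is that gene. In this way 6 genes were measured, on 14 probe sets; H2-DMb1 was not, because both probe sets that name it also name H2-DMb2, and these were not used. Of the 14 probe sets, 10 passed a filter on low signal, which left 5 genes for testing and put Ciita below the filter.

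The series holds 9 TRAMP tumours and 9 normal prostates, with the normal tissue described as dorsolateral and ventral lobes. TRAMP (Transgenic Adenocarcinoma of the Mouse Prostate) mice carry viral T antigens under the probasin promoter, which is active in prostate epithelium. Each sample's RNA was read on an Affymetrix array of its own. The labels used here give no age or strain for either group. They do not state whether each array is a different animal; the p-values therefore reflect only how these samples varied, which may be technical, and the number of arrays limits the precision. The samples are whole tissue, in which fewer cells of a type and less RNA per cell cannot be told apart.

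MHC class II molecules display peptides from engulfed proteins to CD4+ T cells. An alpha and a beta chain pair in the endoplasmic reticulum around the invariant chain, and the peptide that remains of it is exchanged for an antigenic peptide in the endosome with the help of H2-DM. Dendritic cells, macrophages and B cells make these molecules constitutively, and epithelial and other cells can be induced to make them by interferon gamma, through the transactivator Ciita.

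Class II genes are known to share a promoter module, in which an X box bound by the RFX complex lies upstream of a Y box bound by NF-Y, and Ciita docks on the proteins bound there. The RefSeq promoter table (build GRCm38.p6) held windows of 300 bases for 4 of the 7 genes: H2-Aa, H2-Eb1, H2-DMb1 and H2-DMa. Both strands of each window were searched for the Y box core GATTGG and for the X half-site GNAAC lying upstream of it on the same strand with 5 to 30 bases between them. The levels of H2-Aa and H2-Eb1 were, of all genes, the most like those of H2-Ab1 across the arrays. H2-Ab1 had no window and H2-DMb1 no level, and the part of the pair in this likeness was not tested. The 150 bases before the start are shown for the 3 genes that held the pair. Capitals mark the X half-site and then the Y box core.
H2-Aa: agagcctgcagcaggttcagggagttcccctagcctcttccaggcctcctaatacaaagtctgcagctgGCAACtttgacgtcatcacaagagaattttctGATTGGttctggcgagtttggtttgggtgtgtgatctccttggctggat
H2-Eb1: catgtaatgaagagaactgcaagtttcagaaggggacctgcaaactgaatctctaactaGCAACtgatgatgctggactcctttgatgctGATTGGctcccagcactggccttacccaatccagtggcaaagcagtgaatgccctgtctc
H2-DMb1: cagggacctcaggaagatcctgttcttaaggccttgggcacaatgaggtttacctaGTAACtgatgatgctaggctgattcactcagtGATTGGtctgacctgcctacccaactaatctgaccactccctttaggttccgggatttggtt
The H2-Aa stretch is chr17:34287824-34287973 on the minus strand, the H2-Eb1 stretch is chr17:34305717-34305866 on the plus strand, and the H2-DMb1 stretch is chr17:34153041-34153190 on the plus strand. The elements were 27 bases apart in H2-Aa, 26 in H2-Eb1 and 27 in H2-DMb1, and the Y box core began 49, 60 and 62 bases before the start of these genes. Neither of the 2 listed starts of H2-DMa held the pair. Only these windows were searched, so this does not show that H2-DMa lacks the pair at another start. Of 8 class II genes with a window in the promoter table, 6 held the pair, the others being H2-Oa, H2-Ob and H2-Eb2. Among 32851 promoter windows of this length, 1.50% held the pair, 16.1% held the Y box core and 84.8% the X half-site. The letters were chosen from what is known of class II promoters, so the match describes the sequence and is no test of it.

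The arrays differed in ways that bear on these genes. Values are log2(signal + 16) of signals that the authors scaled to a common mean, and on it a dim gene's change is understated. A value at or below the 40th percentile of its array, which lay between 6.91 and 7.41 on this scale, is called dim. TRAMP tumours 1 and 9 stood apart from the other tumours: Krt8, a keratin of glandular epithelium, read 9.36 and 7.72 in them, against 13.65 to 14.04 in the other 7 tumours and 13.15 to 14.35 in the normal prostates. TRAMP tumours 6 and 8 were the most alike of all pairs of arrays (r = 0.960 over probe sets, the next pair 0.951). Poly-A spike controls were bright on 5 tumour and 6 normal arrays and dim on 4 tumour and 3 normal arrays, among the dim ones tumours 6 to 9 and normal prostates 7 to 9. The log2 ratio of actin 3' to 5' probe sets, which grows as RNA degrades, was 1.12 ± 0.51 in tumours and 1.71 ± 0.69 in normal prostates (SD, n = 9 each).

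Tumours against normal prostate was the only comparison the design implies. No class II gene passed the test: 0 of the 5 tested genes reached an adjusted p under 0.05 in limma, where 24.0% of the 12793 genes tested did so in either direction. Each gene was read here from its brightest probe set, and none had an unadjusted limma p under 0.05 either (lowest 0.103). Exact permutation p-values over all 48620 splits lay between 0.128 and 0.552. Dimmer probe sets of H2-Ab1 had lower p-values, with 1425477_x_at under 0.05 unadjusted, given below. The 3 classical chains averaged between 1.47 and 1.61 times the normal level but varied widely within both groups, and every gene's groups overlapped. The median difference over the 5 genes was 0.56 on the log2 scale, beside a median of -0.012 over all genes tested. TRAMP tumour 9 was the lowest of all 18 arrays for each of the 5 genes and for Ciita. This was not particular to class II genes, since it was also lowest in the means over class I and interferon gamma genes given below.

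H2-Aa encodes the alpha chain of the I-A molecule. Its signal ranged in tumours between 9.93 and 13.13 with a median of 12.74, and in normal prostates between 10.54 and 12.78 with a median of 12.01. Tumours 3, 5, 6 and 8 lay above every normal array, while tumour 9 lay below every one. The difference was 0.60 ± 0.39 (SE; 95% interval -0.22 to 1.42), a 1.51-fold higher mean in tumours, with a limma adjusted p of 0.280. The other 3 probe sets of H2-Aa gave differences of 0.37, 0.72 and 0.68, with limma adjusted p between 0.209 and 0.613 over probe sets.

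H2-Ab1, the beta chain of I-A, was represented by the probe set 1450648_s_at. Tumour values lay between 8.15 and 11.53 (median 10.65) and normal values between 8.16 and 10.89 (median 9.81). Tumour 8 alone lay above the normal range, and tumour 9 and normal prostate 7 were level at the bottom. The mean was 10.22 ± 0.97 in tumours and 9.66 ± 0.77 in normal prostates (SD, n = 9 each), a difference of 0.56 ± 0.39 (SE; interval -0.26 to 1.37) with a limma adjusted p of 0.311.

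H2-Eb1, the beta chain of the I-E molecule, had the largest difference in means of the 5 genes when each was read from its brightest probe set. With the mean of a gene's probe sets H2-Ab1 differed by 1.15 and H2-Eb1 by 0.69. Tumours lay between 8.59 and 12.24 with a median of 11.39, and normal prostates between 9.40 and 11.49 with a median of 10.57. Tumours 5, 6, 7 and 8 were above every normal array and tumour 9 was below every one. The difference was 0.69 ± 0.40 (SE; interval -0.15 to 1.53), or 1.61-fold, with a limma adjusted p of 0.223. H2-Ea, the alpha chain that pairs with it and that several inbred strains do not express, was dim on all 18 arrays (5.54 to 6.30 in tumours, 5.52 to 6.03 in normal prostates).

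Tumour 9 decided whether H2-Aa and H2-Eb1 passed. Without it, limma gave a difference of 0.91 with an adjusted p of 0.0291 for H2-Aa and of 1.02 with an adjusted p of 0.0173 for H2-Eb1, while H2-Ab1 stood at 0.82 (adjusted p = 0.0799). With array weights, which lower the influence of arrays that fit poorly, the same 2 genes passed, at 0.85 (limma adjusted p = 0.0408) and 1.04 (limma adjusted p = 0.0138). With the actin ratio as a covariate the differences were 0.43 for H2-Aa, 0.26 for H2-Ab1 and 0.40 for H2-Eb1, with limma adjusted p between 0.558 and 0.734.

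Within the arrays with bright spike controls the differences were 0.76 for H2-Aa, 0.55 for H2-Ab1, 0.69 for H2-Eb1, 0.38 for Cd74 and -0.020 for H2-DMa. Within those with dim controls they were 0.38 for H2-Aa, 0.54 for H2-Ab1, 0.65 for H2-Eb1, 0.068 for Cd74 and -0.46 for H2-DMa. None of the 5 genes passed on the bright arrays (limma adjusted p between 0.0592 and 0.961), where 16.5% of all genes did. On the dim arrays 0 of all 12793 genes passed (1639 at an unadjusted limma p under 0.05), so the missing calls there say nothing about the class II genes.

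The 5 tumours that lay above every normal array in H2-Aa or H2-Eb1 were also the 5 richest in Svs4, a secretory gene of the seminal vesicle, a gland beside the prostate. It read between 14.07 and 15.59 in tumours 3, 5, 6, 7 and 8 and 12.50 in normal prostate 9, against at most 10.70 in the other tumours and at most 10.15 in the other normal prostates. Over 6 seminal vesicle genes the mean log2 level was 5.30 to 15.57 (median 10.83) in tumours and 5.63 to 12.09 (median 6.32) in normal prostates, and Svs4 was the only 1 of 3 tested that rose (difference 4.73, limma adjusted p = 0.0459). Leaving out these 5 tumours thus takes away the highest tumour values of H2-Aa and H2-Eb1. With normal prostate 9, the highest normal array for both genes, 6 arrays were left out. The values without them say nothing about why the class II differences change. Tumour 2, poor in Svs4 at 9.38, read 10.68 for H2-Ab1, inside the range of the 5 tumours rich in Svs4 (10.30 to 11.53). For H2-Aa it read 12.71, below all 5 of them (12.74 to 13.13). For H2-Eb1 it read 11.16, also below all 5 (11.39 to 12.24). Without these 6 arrays the differences were -0.046 for H2-Aa, 0.015 for H2-Ab1, -0.032 for H2-Eb1, -0.40 for Cd74 and -0.54 for H2-DMa, none of which passed (limma adjusted p between 0.0896 and 0.982). Without the 4 arrays highest in seminal vesicle genes, tumours 3, 5 and 7 and normal prostate 9, they were 0.45 for H2-Aa, 0.55 for H2-Ab1, 0.60 for H2-Eb1, 0.045 for Cd74 and -0.30 for H2-DMa. The part of tissue from outside the prostate in the class II values was not tested.

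**Figure D1:**
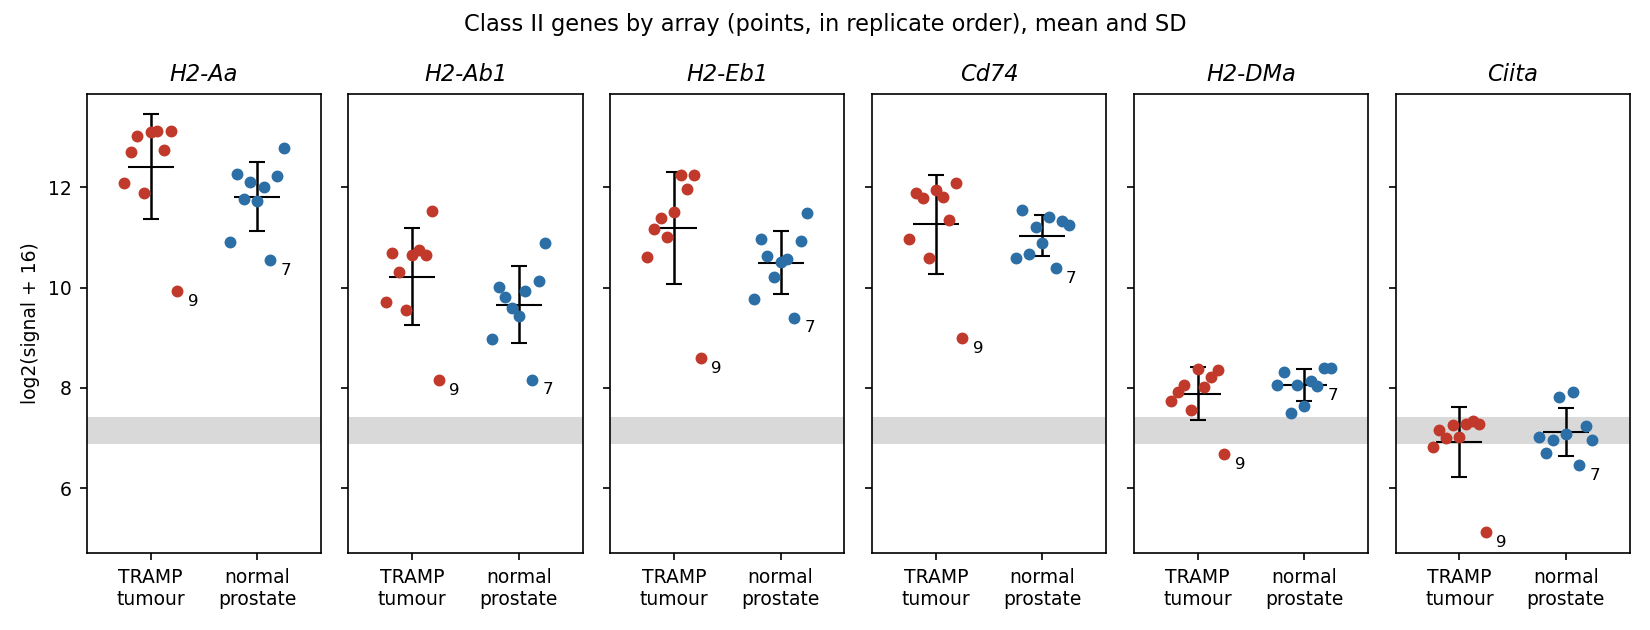
Log2(signal + 16) of 6 class II genes on each array, TRAMP tumours (red, left) and normal prostates (blue, right) in order of replicate number, with bars for the mean and SD of 9 arrays; the grey band is the range of the arrays' 40th percentiles. Tumour 9 is the lowest point of every panel, and the groups overlap in each.

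Cd74, the invariant chain, had 5 of 9 tumours above the normal range. Tumours ranged between 8.99 and 12.08 with a median of 11.79, against 10.38 to 11.55 with a median of 11.21 in normal prostates. Tumours 2, 3, 5, 6 and 8 exceeded every normal array and tumour 9 fell short of every one. The difference in means was 0.23 ± 0.34 (SE; interval -0.47 to 0.94; limma adjusted p = 0.649), and without tumour 9 it was 0.52 (limma adjusted p = 0.106). The SD was 0.99 in tumours and 0.41 in normal prostates.

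H2-DMa, the alpha chain of the peptide exchange factor, was the only tested gene whose mean was not higher in tumours. Tumours lay between 6.68 and 8.39 (median 8.02) and normal prostates between 7.50 and 8.40 (median 8.06). No tumour exceeded the highest normal array, and tumour 9, dim here, was the lowest of all. The difference was -0.18 ± 0.20 (SE; interval -0.61 to 0.25; limma adjusted p = 0.554). Without tumour 9 it was -0.029 (limma adjusted p = 0.911). A second H2-DMa probe set was dim on all 18 arrays.

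Ciita, the transactivator that switches the other genes on, could not be tested. Its brightest probe set was dim on 5 tumour and 6 normal arrays, with values of 5.12 to 7.34 (median 7.16) in tumours and 6.46 to 7.91 (median 7.01) in normal prostates. Tumour 9 again gave the lowest value, 5.12, where the next tumour read 6.83. The other 2 Ciita probe sets were each dim on 8 tumour and 9 normal arrays.

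The 3 probe sets of H2-Ab1 ran the same way but not by the same amount. The difference was 0.56 for 1450648_s_at, 1.11 for 1451721_a_at and 1.78 for 1425477_x_at, with limma adjusted p of 0.325, 0.147 and 0.0809 over probe sets; none passed, where 19.6% of 27292 probe sets did. The probe set 1425477_x_at read 4.48 to 10.02 (median 8.39) in tumours and 5.02 to 9.39 (median 5.81) in normal prostates, and was dim on 1 tumour and 7 normal arrays. In its case 8 of the 9 tumours lay above the normal median.

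The arrays on which 1425477_x_at was dim were tumour 9 and normal prostates 1 to 7, at 4.48 and at 5.02 to 7.05. On the other arrays it read 7.70 to 10.02 in tumours 1 to 8, and 8.64 and 9.39 in normal prostates 8 and 9, which lay inside the range of those tumours. A ratio between these probe sets rests on a dim value on 8 of the 18 arrays, so its size is not given a test. Probe sets ending in _x_at or _s_at can match more than 1 transcript, and the part of that in the difference between the probe sets was not tested.

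**Figure D2:**
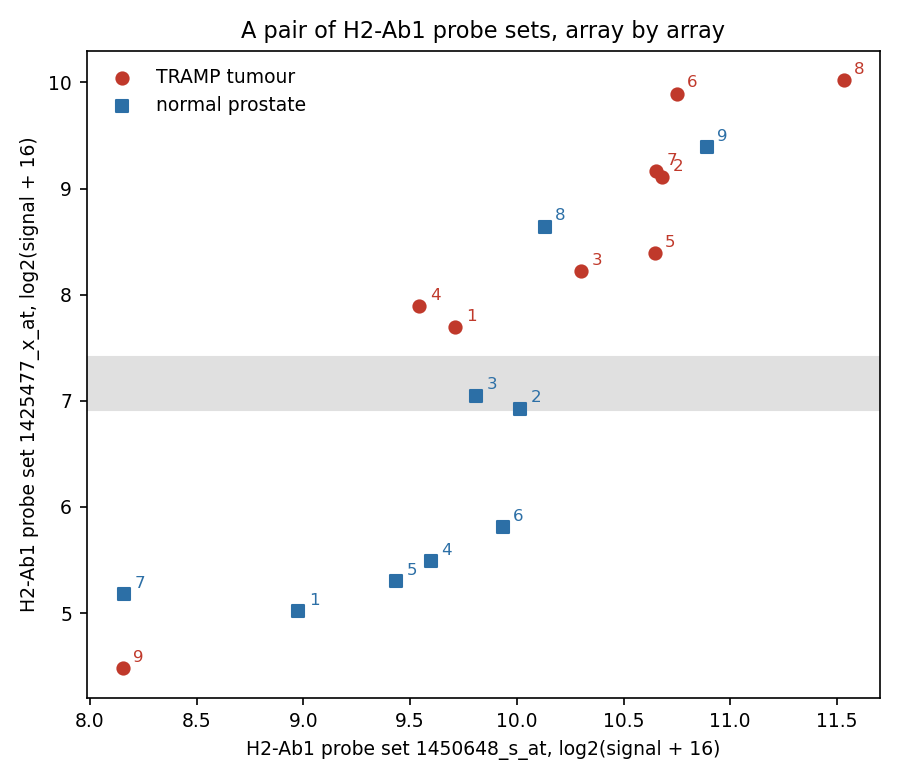
Each point is 1 array, with log2(signal + 16) of the H2-Ab1 probe set 1450648_s_at across and of 1425477_x_at up; red circles are TRAMP tumours, blue squares normal prostates, numbers are replicates and the grey band is the range of the 40th percentiles. Normal prostates 8 and 9 sit among the tumours, and tumour 9 sits near normal prostate 7.

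The classical chains and Cd74 had much the same high and low arrays. In both groups H2-Aa, H2-Ab1 and H2-Eb1 had the same lowest array, tumour 9 and normal prostate 7, and the same highest normal array, normal prostate 9. Normal prostate 9, low in prostate genes, was also the highest normal array for H2-DMa. The counts of tumours above every normal array rest on it for these genes. Tumour 8 was the highest tumour for H2-Ab1, H2-Eb1 and Cd74, and lay within 0.01 of tumour 6, the highest, for H2-Aa. Normal prostate 7 was also the lowest normal array for Cd74 and Ciita, but not for H2-DMa, for which it read 8.04 and normal prostate 3 was lowest at 7.50.

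Likeness to H2-Ab1 was measured as Pearson's r over 18 arrays after each group's mean was subtracted. Of all 12793 genes, H2-Aa was the most alike (r = 0.94) and H2-Eb1 the second (r = 0.94), with Cd74 at rank 11 (r = 0.87) and H2-DMa at rank 145 (r = 0.76). Without tumour 9 and normal prostate 7, which set much of this spread, H2-Eb1 and H2-Aa stayed at ranks 1 and 3 (r = 0.88 each over 16 arrays), and Cd74 stood at rank 43 (r = 0.76). These values are descriptions over arrays that share a scaling.

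The 10 genes outside the set with the highest likeness were Emp3, S100a10, Pdgfc, Prss23, Samd9l, F3, Myadm, Trim12a, Cytip and Ecscr, with r between 0.86 and 0.93. Emp3, a membrane protein, and S100a10, a calcium-binding protein family member, kept ranks 6 and 5 without those 2 arrays, as did Cytip, a regulator of adhesion in leukocytes, at rank 10. The other 7 dropped to ranks between 71 and 244. Samd9l, an interferon-inducible gene, was the only gene of the 10 that passed between groups, at 10.54 ± 0.83 in tumours and 9.35 ± 0.74 in normal prostates (SD, n = 9 each), a difference of 1.18 with a limma adjusted p of 0.0201.

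**Figure D3:**
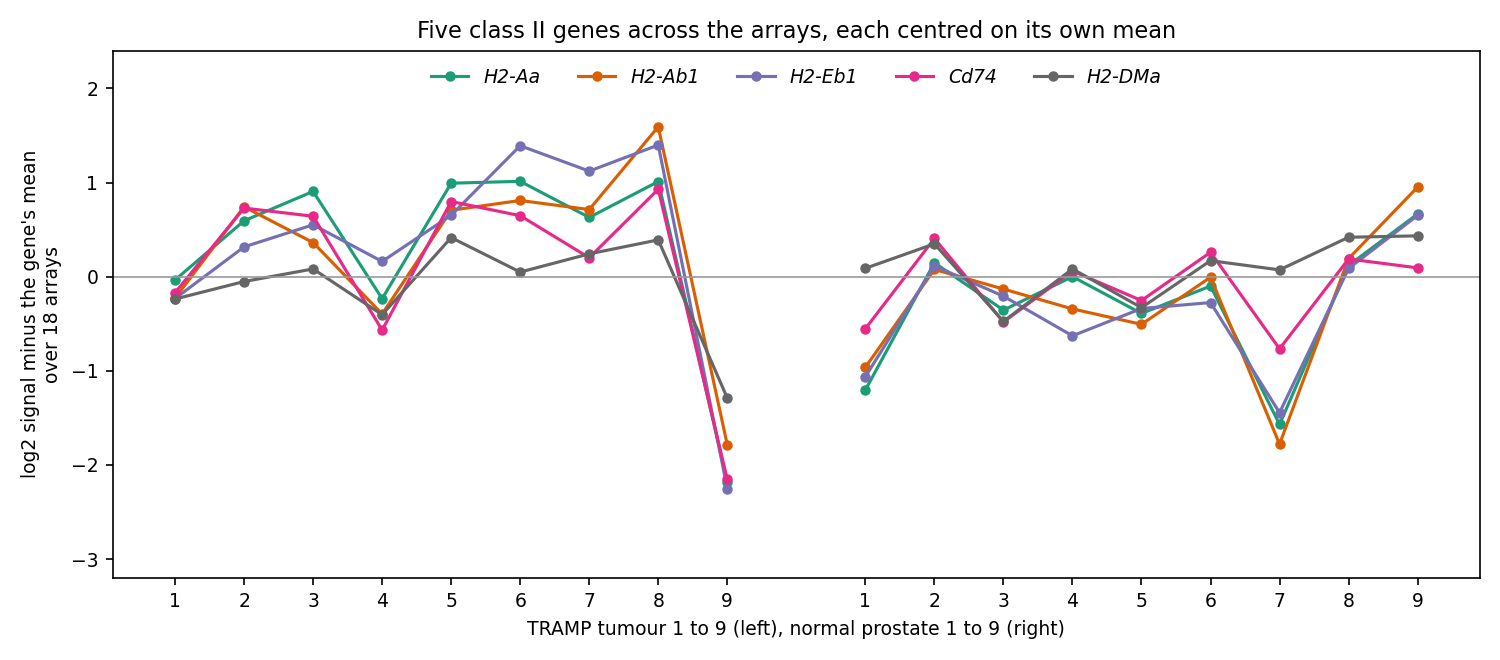
Log2 signal of 5 class II genes on each array minus the gene's mean over 18 arrays, with TRAMP tumours 1 to 9 on the left and normal prostates 1 to 9 on the right; lines join arrays of a group only to guide the eye. H2-Aa, H2-Ab1 and H2-Eb1 dip together at tumour 9 and at normal prostate 7, where H2-DMa dips at tumour 9 only.

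Other genes of the class II pathway were read from a list of 22, of which 14 were tested. Only Creb1, a factor that binds class II promoters, rose in tumours: 10.61 to 11.21 (median 10.89) against 10.07 to 10.65 (median 10.45) in normal prostates, a difference of 0.51 ± 0.12 (SE; limma adjusted p = 0.00475). With the mean of its probe sets in place of the brightest, Creb1 differed by 0.15 (limma adjusted p = 0.445). None fell, 12 of the 14 differences were positive, and their median was 0.32. Of all 12793 genes tested, 24.0% were called in either direction and 6265 differences were positive, with a median of -0.012. Ctss, the protease that trims the invariant chain, read 11.11 to 14.33 (median 12.35) in tumours and 10.37 to 12.08 (median 11.45) in normal prostates, and just missed the threshold (difference 0.94, limma adjusted p = 0.0513), which it passed under 11 of 39 alternative settings. Rfx5, a subunit of the RFX complex, also missed it (0.36, limma adjusted p = 0.0551), as did Lgmn, an endosomal protease (0.74, limma adjusted p = 0.1001); they passed under 7 and 5 of 39.

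No gene of the interferon gamma axis passed in limma, of 12 tested, where 24.0% of all genes did in either direction. Of the 12, 3 had an unadjusted limma p under 0.05, beside 4749 of all 12793 genes tested. The median difference was 0.20. Gbp3, Igtp and Iigp1 encode interferon-induced GTPases. Gbp3 differed by 1.04 (limma adjusted p = 0.0576), Igtp by 0.88 (limma adjusted p = 0.0616) and Iigp1 by 0.77 (limma adjusted p = 0.132). Gbp3 passed under 7 of 37 alternative settings, Igtp under 5 of 39 and Iigp1 under 3 of 39. Ifng itself was dim on all 18 arrays. The mean log2 level over the 14 genes with a probe set was 7.76 in tumour 9. It was 8.48 to 9.66 in the other tumours and 8.26 to 8.92 in normal prostates.

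Genes of class I presentation, which displays peptides made inside the cell, gave 0 passes of 11 tested in limma and a median difference of -0.13. Of the 11, 2 had an unadjusted limma p under 0.05, beside 4749 of all 12793 genes tested. Erap1, a peptidase that trims class I peptides, differed by -0.77 (limma adjusted p = 0.0528), and passed under 13 of 39 alternative settings. Nlrc5, the class I counterpart of Ciita, differed by 1.02 (limma adjusted p = 0.105), and Tap1, a subunit of the peptide transporter, by 0.56 (limma adjusted p = 0.240). They passed under 3 and 2 of 39. The mean log2 level over the 11 class I genes was 8.64 in tumour 9. It was 9.77 to 12.15 in the other tumours and 10.50 to 11.03 in normal prostates.

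**Figure D4:**
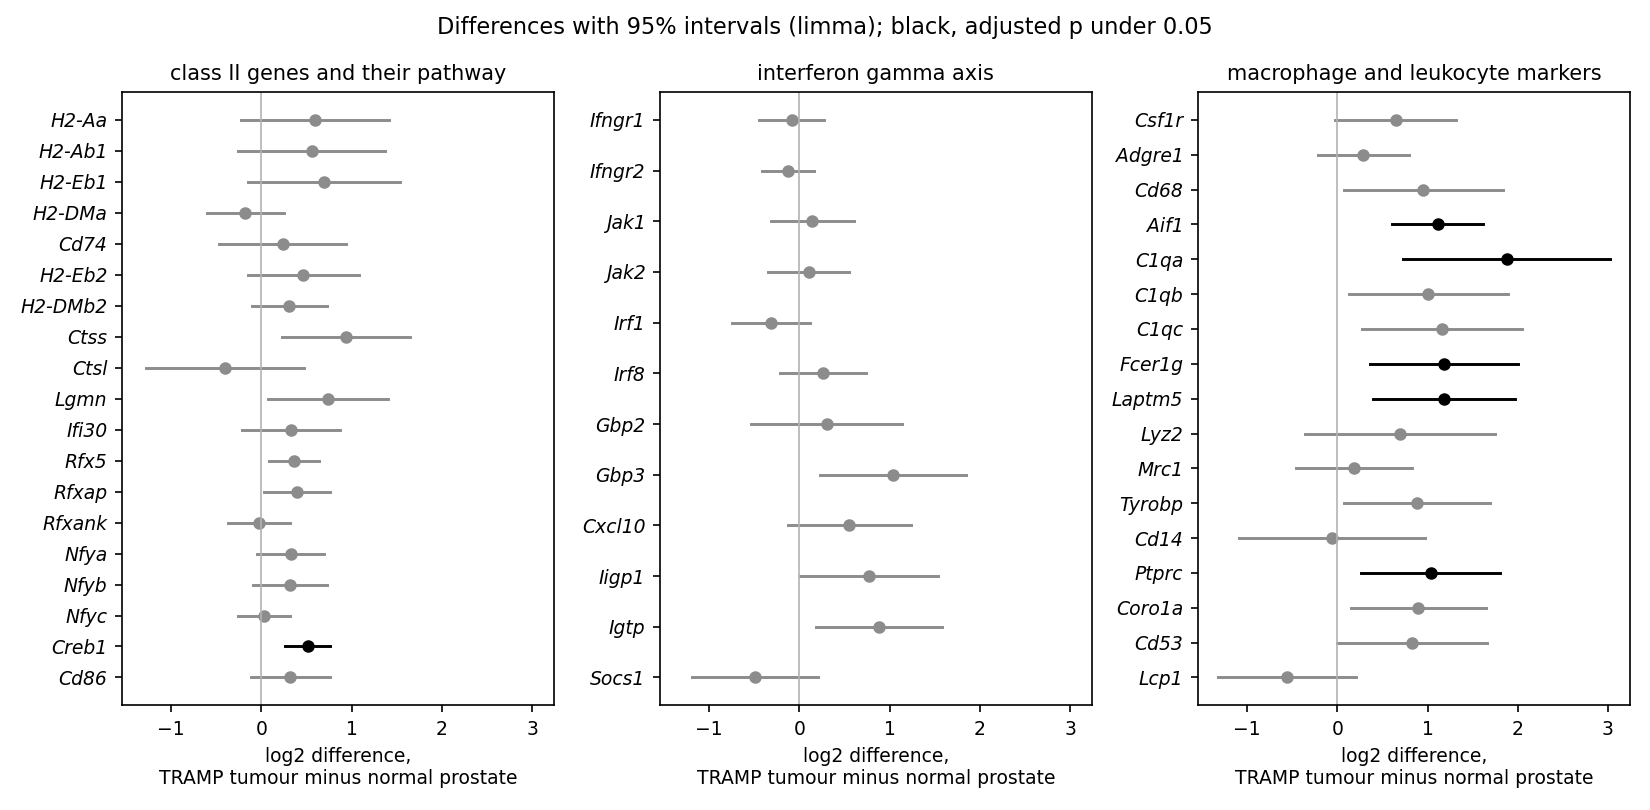
Log2 difference of each tested gene, TRAMP tumour minus normal prostate, with its 95% interval from limma over 9 and 9 arrays; black marks an adjusted p under 0.05 and grey one that is not. Among the class II genes and their pathway only Creb1 is black, and 4 macrophage markers and Ptprc are black on the right.

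Of 13 macrophage markers, all tested, 4 rose and 9 did not pass: C1qa, a complement subunit made by macrophages, differed by 1.88 (limma adjusted p = 0.0188), Aif1 by 1.11 (limma adjusted p = 0.00314), Laptm5 by 1.18 (limma adjusted p = 0.0298) and Fcer1g by 1.18 (limma adjusted p = 0.0359). This share stands beside 24.0% of all genes called in either direction, and 1444 of the 12793 genes were called higher. Of the 13 differences 12 were positive, with a median of 0.95, and 8 had an unadjusted limma p under 0.05. Over all genes tested, 6265 differences were positive and 4749 had an unadjusted limma p under 0.05. The mean log2 level over the 13 markers was 8.75 to 11.77 (median 10.11) in tumours and 8.06 to 9.97 (median 9.36) in normal prostates. Leaving out 1 array at a time gave between 2 and 5 calls, with 2 without tumour 8 or without normal prostate 1, 5 or 7.

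Ptprc (CD45), carried by all leukocytes, was higher in tumours, at 8.31 to 11.24 (median 9.91) against 6.69 to 9.30 (median 9.12) in normal prostates (difference 1.03, limma adjusted p = 0.0474). It was the only pass of 4 tested leukocyte genes, and lost the call under 27 of 38 alternative settings. Over 5 leukocyte genes the mean log2 level was 7.94 to 10.57 in tumours and 7.18 to 9.002 in normal prostates.

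None of 5 tested B and plasma cell genes passed in limma, also at an unadjusted p under 0.05, and Cd79b, a subunit of the B cell receptor, was dim on 9 tumour and 8 normal arrays. The mean log2 level of that list was 6.88 to 7.96 in tumours and 6.67 to 8.09 in normal prostates. Of 7 dendritic cell genes tested, Cd209a fell by 0.52 (limma adjusted p = 0.0278), was dim on 5 tumours and lost the call under 9 of 37 alternative settings. The other 6 genes did not pass, 4 of the 7 differences were positive, and their median was 0.090. The largest was that of Batf3, at 1.07 (limma adjusted p = 0.0639). Of 9 T and NK cell genes with a probe set, 3 were tested and none passed in limma, also at an unadjusted p under 0.05, and Cd4 and Cd2 were dim on all 18 arrays.

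The arrays lowest in the classical class II chains, tumour 9 and normal prostate 7, were also lowest in several leukocyte genes. Tumour 9 had the lowest tumour values of Ptprc (8.31), Csf1r, the receptor of macrophages for their growth factor (10.36), and C1qa (8.96). Normal prostate 7 had the lowest normal values, with 6.69 for Ptprc, 9.39 for Csf1r and 6.63 for C1qa. The orders differed at the top: tumour 5 was the highest for Ptprc (11.24), Csf1r (12.86) and C1qa (12.39), while tumour 8 led for H2-Ab1 with a Ptprc of 9.91. The mean over macrophage markers was lowest of its group in tumour 9 (8.75) and in normal prostate 7 (8.06). So was that over B and plasma cell genes (6.88 and 6.67). Other lists did so in 1 group only. The mean over T and NK cell genes was lowest of the tumours in tumour 9, at 5.82. In normal prostate 7 it was 6.87, the median of the normal arrays, and normal prostate 3 was lowest at 6.40. The mean over dendritic cell genes was lowest of the normal arrays in normal prostate 7, at 6.81, as was Batf3, a dendritic cell transcription factor, at 5.77. Among tumours that mean was lowest in tumour 7 at 7.08, with 7.11 in tumour 9. Batf3 read 9.22 in tumour 9, near the highest tumour value of 9.26. Tumour 1, the other array low in Krt8, read 9.71 for H2-Ab1 and 10.02 for Ptprc. The part of these markers in the class II values was not tested.

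Neuroendocrine genes were high in the tumours lowest in class II genes. Their mean log2 level, over 5 genes with a probe set, was 10.63, 9.45 and 10.94 in tumours 1, 4 and 9, against 5.31 to 6.66 in the other tumours and 5.92 to 6.81 in the normal prostates. The mean over 6 class II genes was 9.66, 9.64 and 7.91 in tumours 1, 4 and 9, against 10.25 to 10.77 in the other tumours and 8.83 to 10.29 in the normal prostates. Tumours 1 and 4 thus lay inside the normal range of class II levels and tumour 9 below it. Tumour 4 was also the richest tumour in urothelial genes. Their mean log2 level was 13.67 in it, 7.41 to 10.25 in the other tumours and 8.10 to 13.85 in normal prostates. Only Syp, a synaptic vesicle protein, was tested between groups, and it did not pass (difference 0.40, limma adjusted p = 0.451). The part of the neuroendocrine or urothelial genes in the class II values was not tested.

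Of 18 relations between H2-Ab1 and another gene within a group, 3 could be computed, all in normal prostate. In tumours the H2-Ab1 values fell into separate clusters, since tumour 9 lay apart by 41.1% of the range, and in normal prostates Ptprc, Csf1r, Flt3, Cd3e and Ciita did so. H2-Ab1 and Cd74 had r = 0.76 (exact permutation p = 0.0109, adjusted over the 3 relations 0.0273) and rho = 0.80 (exact permutation p = 0.0138, adjusted 0.0415). Without the 2 arrays farthest from the median of Cd74, r was 0.37, so the relation rests on those arrays. Krt8 gave r = -0.60 (exact permutation p = 0.0868, adjusted 0.0868) and rho = -0.60 (exact permutation p = 0.0968, adjusted 0.0968), with r = -0.80 without the 2 arrays farthest from its median. Cd79b gave r = 0.76 (exact permutation p = 0.0182, adjusted 0.0273) and rho = 0.70 (exact permutation p = 0.0433, adjusted 0.0649), and r was 0.27 without 2 arrays; its values are dim.

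**Figure D5:**
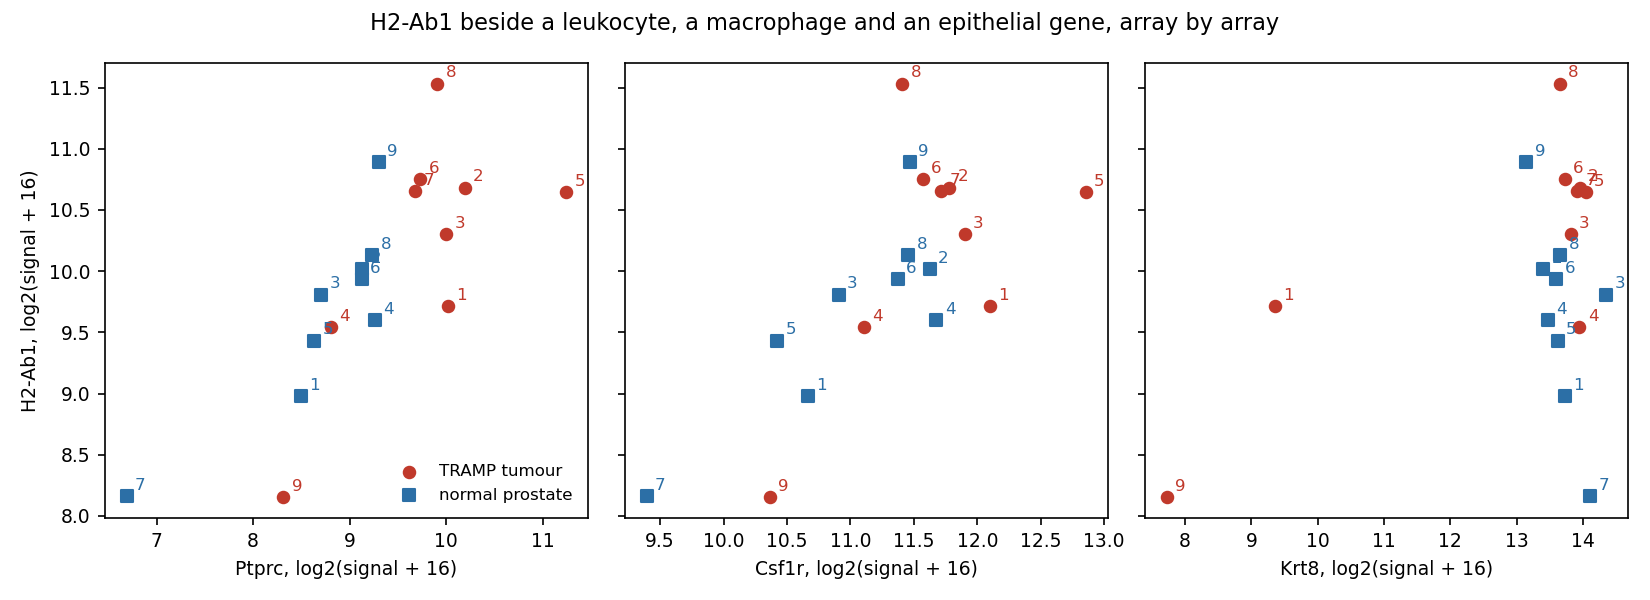
Log2(signal + 16) of H2-Ab1 (up) against Ptprc of leukocytes, Csf1r of macrophages and Krt8 of epithelium (across), 1 point an array; red circles are TRAMP tumours, blue squares normal prostates, and numbers are replicates. Tumour 9 and normal prostate 7 are lowest in H2-Ab1 and lie at the low end of Ptprc and Csf1r for their groups, while tumours 1 and 9 lie far to the left for Krt8.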

How the data were processed

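The arrays measured biotin-labelled total RNA from Trizol extracts, per the labels' protocols. Each deposited value is the intensity of a probe set, not on a log scale, computed with MAS5 per the submitters' processing notes; the sources used here give no version. A single factor had been applied to each array, since the mean after trimming 2% was 500 throughout the deposited intensities. Such scaling evens out overall brightness and leaves dim probe sets noisy.

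The platform table names 1 gene for 34945 of 45101 probe sets, several for 932 and none for 9160, with 64 controls. Signals were analysed as log2(signal + 16) without renormalizing. Probe sets above their array's 40th percentile on 9 or more of the 18 arrays were retained, and each gene was read from its retained single-gene probe set of highest mean. Differences over 12793 genes were tested, two-sided, by limma 3.58.1 (R 4.3.3; group as the only term) and adjusted by Benjamini-Hochberg at 0.05; 1444 were higher and 1623 lower. Higher calls were 47.1% of all calls, 35.0% after centring on the 75th percentile, and 30.7% after centring on housekeeping genes, which moved the median of all genes to -0.12. The code was tested on simulated data. Permutation tests were exact, over all splits or pairings, in Python 3.11.15 with numpy 2.4.6; figures used matplotlib 3.10.9.

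The members, gene lists and tests were chosen with earlier results of these data known. Named were pathway genes past the threshold, up to 3 others of each pathway list by absolute t, up to 3 markers a list by mean signal, and the 10 genes most like H2-Ab1. Not all markers named by mean signal are described. Markers past the threshold, Batf3 for its values, and H2-Ea, Ifng, Cd4, Cd2 and Cd79b for being dim, were singled out after their values were seen. Alternatives were other pseudocounts (1, 64), filters, scalings, array weights, probe set rules, blocks and omitted arrays. Leaving out tumours 1 and 9, and averaging tumours 6 and 8, were added after seeing the data. Samples that share a replicate number did not deviate together (r between -0.11 and 0.31, above 0.1 in 1 of 9), so the numbers were not taken as pairs.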

Additional observations from a re-analysis of the deposited data

Results flagged for a closer look

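Among 54 groups of 9 arrays examined, in 27 series of values, 14 had an array whose gap to its nearest neighbour was large against the group's range by Dixon's criterion; chance alone flags about 1 in 20. Most were TRAMP tumour 9. It was far below the other tumours for H2-Aa at 9.93 (next 11.88), H2-Eb1 at 8.59 (next 10.61), H2-DMa at 6.68 (next 7.57), Cd74 at 8.99 (next 10.58) and Ciita at 5.12 (next 6.83). It was likewise far below them for Iigp1 at 8.07, S100a10 at 8.02, Samd9l at 8.56 and F3 at 5.16. For the log2 ratio of the H2-Ab1 probe sets 1450648_s_at and 1425477_x_at it stood at 3.67 (next 2.25), but 1425477_x_at was dim in tumour 9 and in no other tumour, so the size of that gap rests on a dim value.

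Normal prostate 7 was far below the other normal arrays for Pdgfc at 8.02, F3 at 4.64 and Myadm at 10.25. Normal prostate 9 was far above them for Igtp at 9.90 (next 9.36). S100a10, Samd9l, F3, Pdgfc and Myadm were chosen for likeness to H2-Ab1 over these same arrays, so their gaps are not independent of those of the class II genes.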

How the results depend on the processing

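The number of class II genes called, 0, held under 36 of 39 alternatives and was 2 (H2-Aa and H2-Eb1) with array weights, without TRAMP tumour 9, and without TRAMP tumours 1 and 9, where limma gave 1.0003 (adjusted p = 0.0230) and 1.14 (adjusted p = 0.00969). Leaving out 1 array at a time gave 0 to 2 class II genes and 2455 to 3411 genes in all, against 3067. Without normal prostate 9 and tumours 3, 5, 6, 7 and 8, H2-Aa (-0.046), H2-Eb1 (-0.032), Cd74 (-0.40) and Tap1 (-0.080) changed sign; without tumours 1 and 9, H2-DMa did (0.013). H2-Ab1 kept its sign under all 39 alternatives, between 0.015 and 1.15, and never passed (adjusted p 0.0546 to 0.982). All genes called came to 5358 with every kept probe set tested and 1634 with the actin ratio as a covariate. Without normal prostate 9 and tumours 3, 5, 6, 7 and 8 they came to 4860. By limma on the arrays with dim spike controls they came to 0, where 1639 had an unadjusted p under 0.05. Fewer arrays were fitted there, and the cause of these counts was not tested. With the replicate number as a block, 2645 genes and 0 class II genes were called and macrophage calls went to 2; 1 tumour was closest to the normal array of its own number. The macrophage count was between 0 and 5 over all alternatives. H2-Ab1 against Cd74 and Cd79b in normal prostate weakened to r = 0.37 and r = 0.27 without 2 arrays, and against Krt8 reached -0.80 (exact permutation p = 0.0343). Ciita, dim on most arrays, is limited by signal over background.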
